A study of Mus musculus with 8 samples.

Results

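The potassium channel genes of the mouse are described here in newborn skeletal muscle, as the genes whose symbol begins with Kcn followed by a letter. The pattern matched 95 of the 23336 genes in the count table, and 92 remained after Kcnq1, Kcnq1ot1 and Kcnj8 were set aside. Of the 92 genes, 61 had at least 10 counts in at least 4 of the 8 libraries and are described, and 31 were below that level. The samples were 4 libraries from ΔDMR1-U2 mice and 4 from wild-type mice, all female C57BL/6 mice taken on postnatal day 2, with paired-end reads of ribo-depleted total RNA from skeletal muscle. ΔDMR1-U2 is named for a deleted segment of the imprinted Igf2 locus, which encodes a fetal growth factor, and the study compared muscle with and without it. For the parent of origin of the deletion, its coordinates and the muscles dissected, the sources used here give nothing. The series' text speaks of 4 mice in each group, but no label says how the libraries named 1A and 1B relate to each other, so p-values measure the spread between libraries.

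Potassium channels let potassium ions leave the cell and thereby hold the resting potential and end the action potential. Voltage-gated channels are built of alpha subunits that form the pore, silent subunits that only work inside a mixed channel, and auxiliary subunits that tune gating. Inward rectifiers and two-pore channels carry the resting current, while calcium- and sodium-activated channels couple potassium efflux to other ions. In skeletal muscle the inward rectifiers of the fibre membrane and of the transverse tubules stabilise the resting potential, and ATP-sensitive channels made of Kcnj11 and the sulfonylurea receptor Abcc9 open under metabolic load. The muscle also contains nerve branches, whose myelinated axons carry Kcna1 and Kcna2 subunits beside the nodes, and blood vessels with their own channels.

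Library totals ran from 16781493 to 20060129 counts in ΔDMR1-U2 and from 16084413 to 26913636 in wild-type. Levels are given in CPM (counts rescaled to a common library size that is adjusted for library composition), and comparisons between genes use CPM per kilobase of exon. Igf2as, the gene antisense to Igf2, had 5.55 to 6.18 CPM in ΔDMR1-U2 against 54.4 to 72.2 CPM in wild-type, so all 8 libraries carried the level of their labelled group. A pair of ΔDMR1-U2 libraries stood apart. Library 1B lay at the far end of the first principal component, and library 1A had 2.50 CPM of Xist against 1270 to 1895 CPM in the other 7, although its label reads female. All 10 skeletal muscle markers were present in every library, and their summed level was 162373 to 182870 CPM in ΔDMR1-U2 against 178067 to 210136 CPM in wild-type. In bulk tissue, fewer cells of a type and less RNA per cell cannot be told apart.

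The promoters of 4 genes whose levels did not overlap between the groups are shown first, so that the letters upstream of channels with opposite differences can be read side by side. They come from the RefSeq promoter table (GRCm38.p6), which holds a window for 46 of the 61 described genes and for 8 of the 10 genes without overlap. Each run ends at the base before the RefSeq start, is written 5′ to 3′ on the gene's own strand, and was shortened where it met an annotated exon. Capitals mark E-boxes (CANNTG) and GC boxes (GGGCGG), searched on both strands. Kcna2, higher in ΔDMR1-U2, is shown for chr3:107101395-107101566 on the plus strand, a stretch of 172 bases that lies in the first intron of a longer annotated transcript. Kcnf1 (chr12:17176889-17177138, minus strand) and Kcnj15 (chr16:95257308-95257557, plus strand) were also higher in every ΔDMR1-U2 library than in any wild-type library. Kcnh2 (chr5:24329592-24329841, minus strand, inside the annotated gene) was lower in every ΔDMR1-U2 library.
Kcna2: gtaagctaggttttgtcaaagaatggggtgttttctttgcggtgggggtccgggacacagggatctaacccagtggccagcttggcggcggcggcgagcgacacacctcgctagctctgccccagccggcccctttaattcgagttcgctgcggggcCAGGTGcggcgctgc
Kcnf1: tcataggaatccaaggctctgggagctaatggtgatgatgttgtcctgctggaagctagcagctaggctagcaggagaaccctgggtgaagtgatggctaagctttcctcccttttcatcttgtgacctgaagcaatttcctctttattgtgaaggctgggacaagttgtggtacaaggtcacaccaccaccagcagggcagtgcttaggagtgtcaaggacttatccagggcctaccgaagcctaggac
Kcnj15: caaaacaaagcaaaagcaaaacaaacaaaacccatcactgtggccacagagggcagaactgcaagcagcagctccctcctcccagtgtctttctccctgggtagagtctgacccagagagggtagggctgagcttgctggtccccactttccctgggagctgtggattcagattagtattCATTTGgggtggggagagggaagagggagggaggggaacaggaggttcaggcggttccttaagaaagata
Kcnh2: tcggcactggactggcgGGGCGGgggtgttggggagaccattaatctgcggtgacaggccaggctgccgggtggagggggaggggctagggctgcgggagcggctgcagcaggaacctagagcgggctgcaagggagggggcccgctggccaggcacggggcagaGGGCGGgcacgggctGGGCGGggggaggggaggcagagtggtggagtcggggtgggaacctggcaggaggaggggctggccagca
The Kcna2 and Kcnj15 runs each held 1 E-box, the Kcnh2 run held 3 GC boxes, and the Kcnf1 run held neither. GC content was 63.4% in Kcna2, 51.2% in Kcnf1, 53.2% in Kcnj15 and 73.6% in Kcnh2. Windows of Kcna7, Kcne4, Kcnh1 and Kcnma1 met an annotated exon too near the start and are not printed. Over its full 250 bases, that of the lower Kcna7 held 3 E-boxes, 0 GC boxes and 48.4% GC. The higher Kcnma1 held 0 E-boxes, 3 GC boxes and 79.2% GC. Also higher, Kcne4 held 2 E-boxes and 0 GC boxes (53.2% GC) and Kcnh1 0 E-boxes and 1 GC box (62% GC). GC boxes thus occurred in windows of both higher and lower genes. An E-box was present in 44 of the 64 upstream windows of described channel genes (68.8%) and in 66.2% of all 32851 windows of 250 bases. GC boxes were in 43.8% of the channel windows and in 32.7% of all windows. A TATAAA box was in 1 channel window (1.56%) and in 12.4% of all windows. These are matches of letters, and none of the factors that bind them was measured.

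Most channel transcripts were scarce in the muscle. The median level of the 61 described genes was 0.645 CPM per kilobase, against 4.17 CPM per kilobase over the 15033 tested genes with a length. Kcne1l, an X-linked auxiliary subunit of the Kcne family, stood far above the rest at 64.9 ± 12.8 CPM per kilobase in ΔDMR1-U2 and 76.5 ± 10.1 in wild-type (SD, n = 4). Its level over all libraries, 70.7 CPM per kilobase, was at the 97.4th percentile of tested genes. Next came Kcnj2, the inward rectifier of the classical strong type, at 9.82 CPM per kilobase over all libraries. Kcnj11, the pore of the ATP-sensitive channel, was at 7.19, Kcnj12, a second strong inward rectifier, at 6.03, and Kcnj13 at 5.76 CPM per kilobase. Kcnj11 exceeded Kcnj12 by more than either SD in wild-type but not in ΔDMR1-U2. Kcnj12 and Kcnj13 differed by less than the larger of their SDs in both groups.

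**Figure D1:**
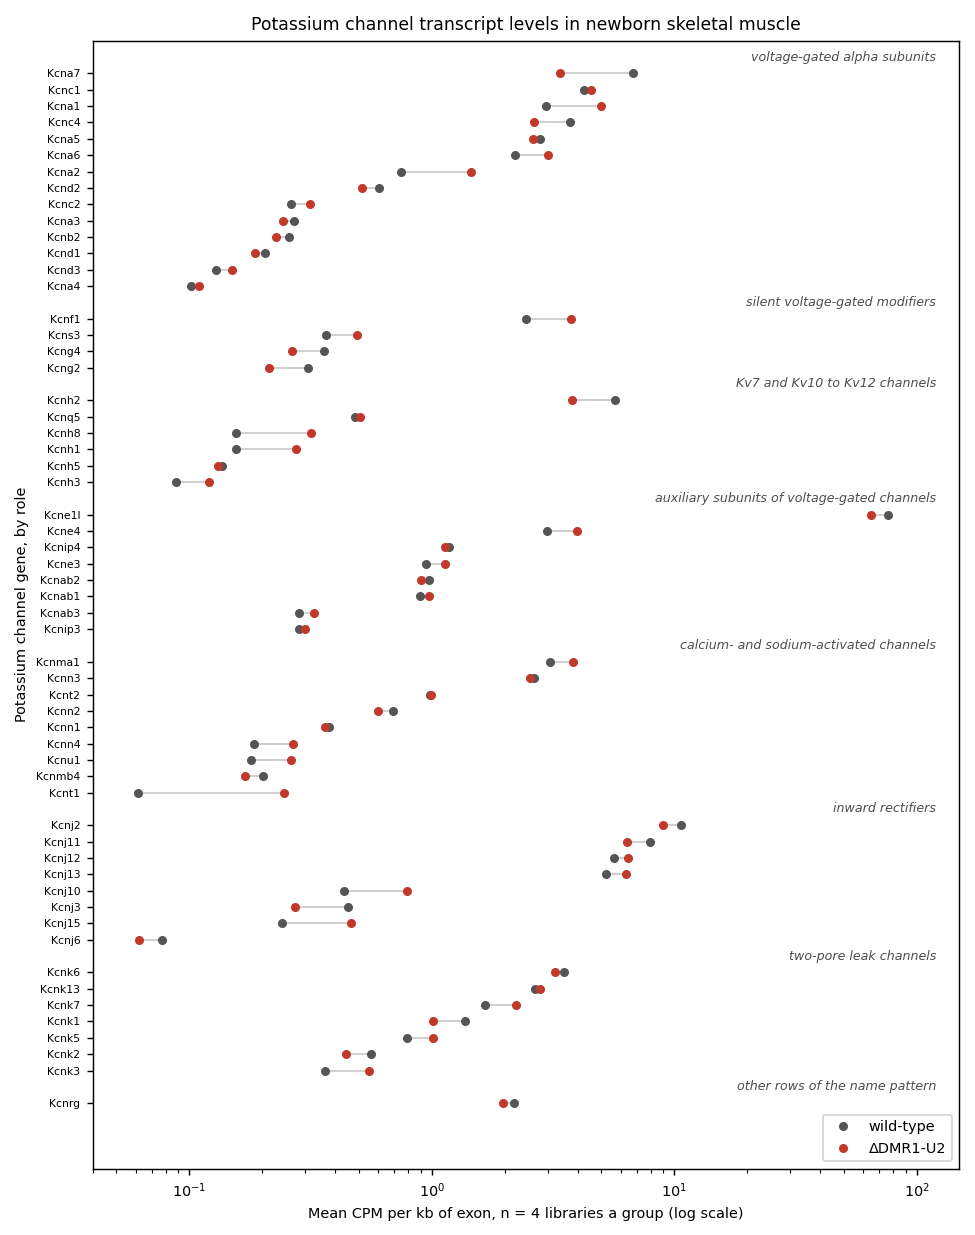
Mean level of the tested potassium channel genes described here in CPM per kilobase of exon on a log axis, by group (n = 4 libraries each), with genes ordered within their roles. Kcne1l lies alone at 64.9 and 76.5, and most genes lie below the median of all tested genes, 4.17.

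By role, the 8 inward rectifiers tested had the highest median level, 3.19 CPM per kilobase, and the 4 silent subunits a median of 0.371. The other medians over the tested genes were 1.10 for the Kv1 to Kv4 alpha subunits, 1.19 for the two-pore channels, 0.987 for the auxiliary subunits, 0.370 for the calcium- and sodium-activated channels and 0.236 for the Kv7 and Kv10 to Kv12 channels. Among two-pore channels Kcnk6 led at 3.35 and Kcnk13 followed at 2.72 CPM per kilobase. Kcnma1, the large-conductance calcium-activated channel, at 3.45, and Kcnn3, a small-conductance calcium-activated channel known from immature and denervated muscle, at 2.59, led their class. The summed level of all 61 genes was 608, 595, 652 and 712 CPM in the ΔDMR1-U2 group and 675, 638, 639 and 659 CPM in the wild-type group (libraries 1A, 1B, 2 and 3 in that order, here and throughout), and these ranges overlapped.

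At the edge of the count rule, Kcnk4 entered with a fourth-highest count of 10 and Kcna3 and Kcna4 with 11, while Kcnh4 stayed out with 9 and Kcnh7 with 8. Kcnk9 and Kcnk16 had 0 counts in every library, and the 31 genes below the rule had at most 21 counts in any library. Among those were Kcnq3, a neuronal Kv7 channel, Kcnip1 and Kcnip2, calcium-binding partners of Kv4 channels, and Kcnmb1, the beta subunit that accompanies Kcnma1 in smooth muscle. Of the 61 described genes, 59 passed the filter of the test, and Kcnk4 was among the 2 that did not.

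The comparison of ΔDMR1-U2 with wild-type muscle asked which channel genes differ with the deletion, and every fold change is ΔDMR1-U2 over wild-type. Kcna2, a Kv1 alpha subunit of axons, rose 1.96-fold. By edgeR's quasi-likelihood test with Benjamini-Hochberg adjustment over all 15241 tested genes, it was the only gene called higher at an adjusted p under 0.05 among the 59 channel genes tested. Calls came to 1 of 59 (1.69%) in each direction, where 0.512% of all genes were called higher, 0.617% lower and 1.13% either way. At an unadjusted p under 0.05 there were 18 channel genes (30.5%), 13 higher and 5 lower, against 21.3% of all genes, of which 10.4% were higher and 10.9% lower. Levels did not overlap between the groups for 10 channel genes (16.9%), against 12.8% of all genes, 6.4% higher and 6.38% lower. The 7 higher ones were Kcna2, Kcnf1, Kcnj15, Kcne4, Kcnt1, Kcnh1 and Kcnma1, and Kcna7 and Kcnh2 were among the 3 lower ones.

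The median log2 fold change of the 59 genes stood at 0.06, against -0.00 over all genes, with 32 positive and 27 negative values. Their median absolute log2 fold change was 0.30, against 0.14 over all genes. The part of their low counts in this difference was not tested. An absolute log2 fold change of at least 0.5 was found for 16 of them, and of at least 1 for Kcna7 and Kcnt1. For 9 genes the 95% interval of the log2 fold change stayed within 0.5 of 0 on both sides. Shares of all genes at these sizes and intervals were not counted. DESeq2, an alternative test on the same counts, called 10 of 61 channel genes, 8 higher and 2 lower, where it called 6.01% of all genes, 2.78% higher and 3.23% lower. Kcna1, Kcna6, Kcne4, Kcnf1, Kcnj15, Kcnma1 and Kcnt1 joined Kcna2 on the higher side, and Kcnh2 was called lower. The authors' deposited table called 3 channel genes, Kcna2 and Kcna7 among them, where 0.887% of its genes were called.

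**Figure D2:**
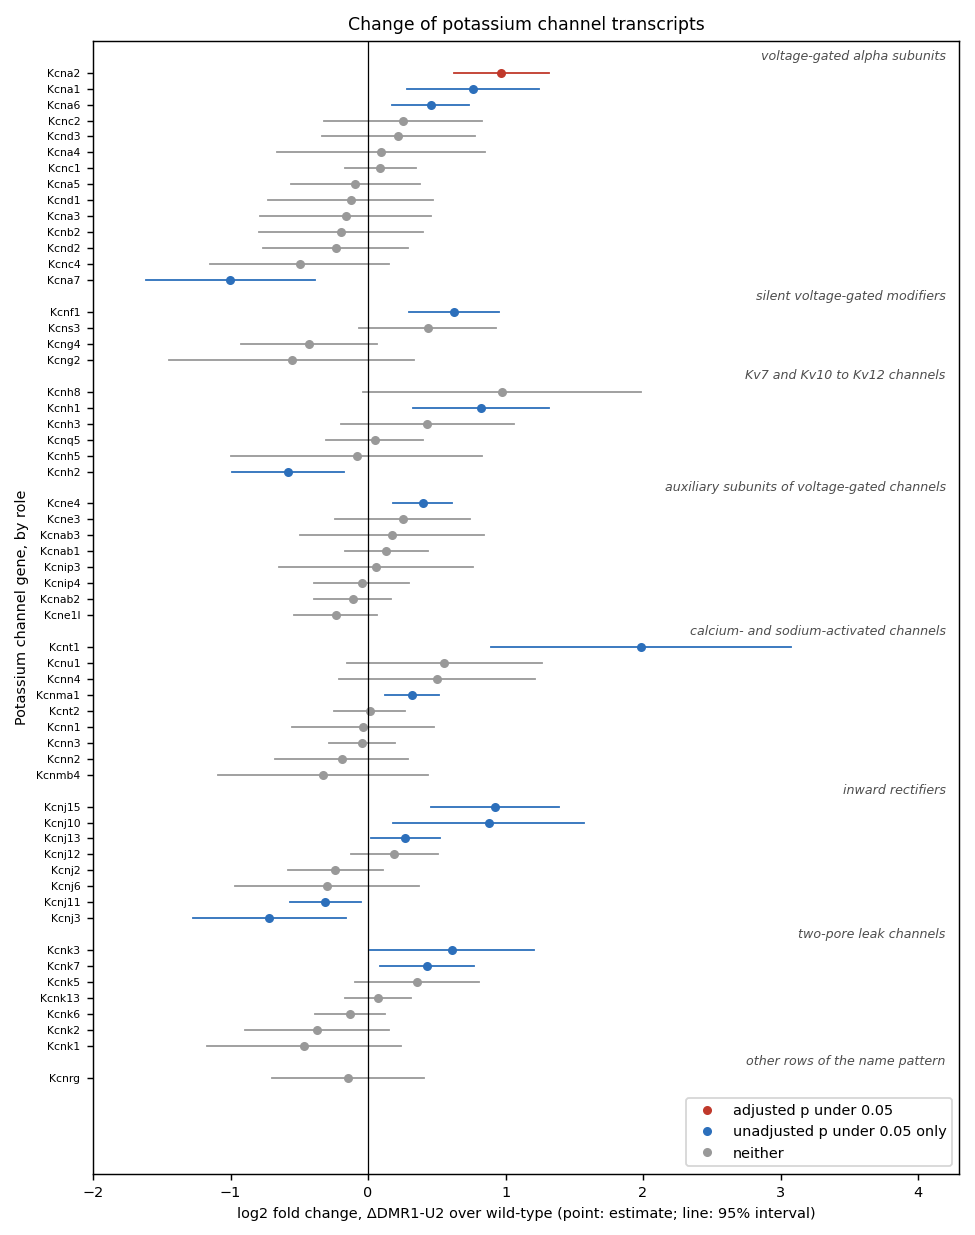
Log2 fold change of the tested potassium channel genes described here, ΔDMR1-U2 over wild-type (points), with 95% intervals (lines), grouped by role. Kcna2 at 0.97 is the called gene shown, and Kcnt1 at 1.98 has the widest shift with a broad interval.

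Kcna2 held 15.5, 18.8, 14.2 and 20.9 CPM in ΔDMR1-U2, and 9.15, 9.95, 9.84 and 6.54 CPM in the wild-type group. All 4 ΔDMR1-U2 values lay above all 4 wild-type values, with the highest in ΔDMR1-U2 3 and the lowest in wild-type 3. Means were 17.3 ± 3.06 and 8.87 ± 1.59 CPM (SD, n = 4), and the log2 fold change was 0.97 (SE 0.16, edgeR adjusted p = 0.0301, 95% interval 0.62 to 1.31). The direction held in each of the 8 fits that left out 1 library, at 0.84 to 1.05, and the call held in 3 of them. Adjusted p was 0.0785 without ΔDMR1-U2 3, 0.108 without wild-type 1A, 0.0641 without wild-type 1B, 0.0826 without wild-type 2 and 0.0505 without wild-type 3. Without both ΔDMR1-U2 1A and 1B the log2 fold change was 0.99 with an adjusted p of 0.0823. In the authors' deposited table the adjusted p of Kcna2 was 0.00046.

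Kcna1 and Kcna6 are further Kv1 subunits found in axons. Kcna1 had 23.9, 22.7, 16.9 and 32.3 CPM in ΔDMR1-U2 against 13.8, 16.9, 16.6 and 8.92 CPM in wild-type. The groups met between ΔDMR1-U2 2 and wild-type 1B, and the extremes were again ΔDMR1-U2 3 and wild-type 3. The log2 fold change was 0.76 (SE 0.22), with an adjusted p of 0.0961 by edgeR and 0.0124 by DESeq2. Kcna6 had 17.2, 18.4, 16.2 and 19.9 CPM against 11.8, 12.7, 16.6 and 11.1 CPM, so wild-type 2 lay inside the ΔDMR1-U2 range. By size it came to a log2 fold change of 0.45 (SE 0.13), with an adjusted p of 0.0929 by edgeR and 0.0295 by DESeq2, and an exon of Gm26673 overlaps it on the opposite strand. Because the sources used here leave the strand setting unstated, reads of such overlapping pairs cannot be told apart, which holds for 22 of the 59 tested genes, Kcnj15, Kcnj3 and Kcnk3 among them.

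Some Kv1 genes sit in clusters (GRCm38 coordinates of the annotation). On chromosome 3, Kcna3 (107036169 to 107038070), Kcna2 (107101146 to 107115005) and Kcna10 (107183056 to 107195721) follow each other on the plus strand. Kcna3, known from lymphocytes, had a log2 fold change of -0.16 (95% interval -0.78 to 0.46) at 6 to 16 counts a library, and Kcna10 was below the count rule. On chromosome 6, Kcna5 (126532551 to 126535412), Kcna1 (126640397 to 126646384) and Kcna6 (126708329 to 126740674) lie on the minus strand. Kcna5 had 11.7 CPM in ΔDMR1-U2 1B against 5.43 to 7.05 CPM in the other ΔDMR1-U2 libraries and 7.31 to 8.64 CPM in wild-type, with a log2 fold change of -0.09 (95% interval -0.56 to 0.38). Kcna4, a Kv1 gene on chromosome 2, had one of 0.09 (95% interval -0.66 to 0.85) at 6 to 19 counts a library. The annotated transcripts of Kcna1 and Kcna2 share no run of 25 bases or more, while Kcna5 and Kcna6 share one of 91 bases and Kcna1 and Kcna6 one of 31. Kcna2 shares runs of 47 bases with Kcnc1, 43 with Kcnj10, 41 with Kcnk3 and 29 with Kcna3, among others. The part of shared runs in the counts was not tested.

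Kcna7, a Kv1 subunit known from skeletal muscle and heart, had 8.27, 2.88, 10.6 and 7.65 CPM in ΔDMR1-U2 against 15.8, 14.1, 12.3 and 16.8 CPM in wild-type. The groups did not overlap, and ΔDMR1-U2 1B was well below the other 7 libraries. Its log2 fold change was -1.003 (SE 0.28, edgeR adjusted p = 0.0925). Without ΔDMR1-U2 1B it was -0.74 and was called (adjusted p = 0.0466), as it was without ΔDMR1-U2 2 (-1.22, adjusted p = 0.0437). The authors' deposited table gave Kcna7 an adjusted p of 0.0158.

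The Kv3 genes, which carry fast-deactivating currents, were called by neither edgeR nor DESeq2. Kcnc1 had 35.5 to 49.4 CPM in ΔDMR1-U2 against 37.1 to 47.5 CPM in wild-type, with a log2 fold change of 0.09 (95% interval -0.17 to 0.35). Kcnc4, known from skeletal muscle, had 10.2, 4.53, 16.0 and 7.89 CPM against 14.5, 10.5, 12.3 and 16.9 CPM. Its log2 fold change of -0.50 (95% interval -1.15 to 0.15) was -0.26 without ΔDMR1-U2 1B. Kcnd1, Kcnd2 and Kcnd3, the Kv4 subunits of transient outward current, had log2 fold changes of -0.13 (95% interval -0.73 to 0.47), -0.23 (95% interval -0.76 to 0.29) and 0.22 (95% interval -0.34 to 0.78). With 1 library left out these ran from -0.27 to 0.06 (without ΔDMR1-U2 1B) for Kcnd1, from -0.38 to -0.0063 (without the same library) for Kcnd2 and from 0.03 (without wild-type 3) to 0.39 for Kcnd3. Over the 15 Kv1 to Kv4 genes tested the median was -0.09, with 7 positive.

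**Figure D3:**
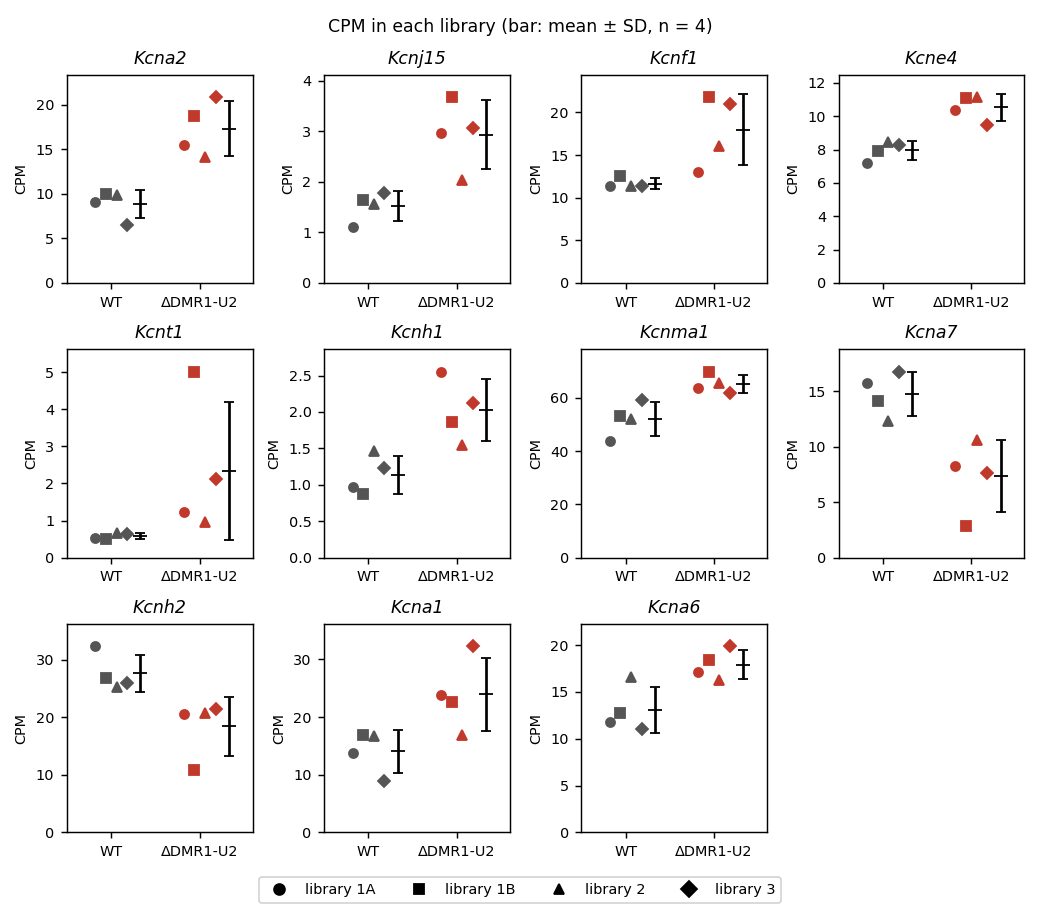
CPM of 11 potassium channel genes in each of the 8 libraries (symbols mark the library label), with the mean and SD of each group (n = 4). In the 9 genes without overlap shown, the ΔDMR1-U2 libraries lie on 1 side of all wild-type libraries, whereas Kcna1 and Kcna6 meet at the edge.

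None of the 4 silent subunits tested was called by edgeR, with 1 higher at an unadjusted p under 0.05 and 1 called by DESeq2. That gene, Kcnf1, which modifies Kv2 channels, had 13.0, 21.8, 16.1 and 21.0 CPM in ΔDMR1-U2 against 11.4, 12.6, 11.3 and 11.4 CPM in wild-type. The groups did not overlap, and wild-type was the tighter one. Its log2 fold change was 0.62 (SE 0.15, edgeR adjusted p = 0.0652, DESeq2 adjusted p = 0.00562). Calls by edgeR appeared without ΔDMR1-U2 1A (0.76, adjusted p = 0.0350) and without ΔDMR1-U2 2 (0.67, adjusted p = 0.0470). Kcns3, another silent partner of Kv2, had a log2 fold change of 0.43 (95% interval -0.06 to 0.93), which was 0.27 without wild-type 3, and Kcng4 one of -0.43 (95% interval -0.93 to 0.07). Kcng2, at 8 to 37 counts a library, had one of -0.56 (95% interval -1.45 to 0.34), which was -0.16 without wild-type 3.

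None of the 8 auxiliary subunits tested was called by edgeR, with 1 higher at an unadjusted p under 0.05 and the same number by DESeq2. Kcne4, a suppressor of several voltage-gated channels, had 10.4, 11.1, 11.2 and 9.47 CPM in ΔDMR1-U2 against 7.20, 7.88, 8.45 and 8.28 CPM in wild-type. No value overlapped, and the log2 fold change was 0.40 (SE 0.10, edgeR adjusted p = 0.0702, DESeq2 adjusted p = 0.0308). The abundant Kcne1l had 91.7, 76.5, 119 and 113 CPM against 139, 121, 105 and 107 CPM. Its groups overlapped, the lowest values were those of ΔDMR1-U2 1A and 1B, and the log2 fold change of -0.24 (95% interval -0.54 to 0.07) was -0.02 without both. Kcne3, a partner of Kv3 and Kv7 channels, had a log2 fold change of 0.25 (95% interval -0.24 to 0.74), which was 0.05 without ΔDMR1-U2 1B and -0.05 without both ΔDMR1-U2 1A and 1B. The cytoplasmic beta subunits Kcnab1 and Kcnab2, which bind Kv1 channels, had log2 fold changes of 0.13 (95% interval -0.17 to 0.43) and -0.11 (95% interval -0.39 to 0.17).

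In the Kv7 and Kv10 to Kv12 class edgeR called 0 of 7 genes, with 1 higher and 1 lower at an unadjusted p under 0.05, and DESeq2 called 1 lower. Kcnh2, the ERG channel best known from cardiac repolarisation, had 20.6, 10.8, 20.7 and 21.5 CPM in ΔDMR1-U2 against 32.3, 26.9, 25.3 and 26.0 CPM in wild-type. The groups were apart, ΔDMR1-U2 1B was far below its own group, and the log2 fold change was -0.58 (SE 0.18, edgeR adjusted p = 0.120, DESeq2 adjusted p = 0.0324) and -0.39 without that library. Kcnh1, the EAG channel known from fusing human myoblasts, had 2.55, 1.87, 1.55 and 2.12 CPM against 0.973, 0.880, 1.46 and 1.23 CPM. Again no value overlapped, at a log2 fold change of 0.82 (SE 0.22, edgeR adjusted p = 0.0891) and 15 to 50 counts a library. Kcnq5, a Kv7 channel of brain and muscle, had a log2 fold change of 0.05 (95% interval -0.31 to 0.40).

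No calcium- or sodium-activated channel of 9 was called by edgeR, while 2 were higher at an unadjusted p under 0.05 and 2 were called higher by DESeq2, and the median log2 fold change was 0.01. Kcnma1 had 63.5, 69.8, 65.4 and 61.9 CPM in ΔDMR1-U2 against 43.6, 53.2, 52.1 and 59.3 CPM in wild-type, so the lowest ΔDMR1-U2 library was just above wild-type 3. Its log2 fold change was 0.32 (SE 0.09, edgeR adjusted p = 0.0914, DESeq2 adjusted p = 0.0317), and 4930519K11Rik overlaps its exons on the opposite strand. Kcnt1, a sodium-activated channel of neurons, had 1.23, 5.02, 0.955 and 2.12 CPM against 0.519, 0.498, 0.673 and 0.637 CPM. All ΔDMR1-U2 values were higher, with ΔDMR1-U2 1B above the rest. The log2 fold change of 1.98 (SE 0.49, edgeR adjusted p = 0.0727, DESeq2 adjusted p = 0.00267), at 8 to 94 counts a library, was 1.30 without ΔDMR1-U2 1B. Without ΔDMR1-U2 2 it was 2.23 and was called by edgeR (adjusted p = 0.0316). Kcnn3 had 23.0 to 32.5 CPM in ΔDMR1-U2 against 25.7 to 30.3 CPM in wild-type, a log2 fold change of -0.05 (95% interval -0.29 to 0.19), and Kcnn2, its small-conductance relative, one of -0.19 (95% interval -0.68 to 0.29), which was 0.0076 without ΔDMR1-U2 1B. For Kcnt2, the other sodium-activated channel, the value was 0.01 (95% interval -0.24 to 0.27).

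Of 8 inward rectifiers edgeR called none, with 3 higher and 2 lower at an unadjusted p under 0.05, and DESeq2 called 1 higher. Kcnj15 had 2.96, 3.68, 2.03 and 3.06 CPM in ΔDMR1-U2 against 1.10, 1.65, 1.57 and 1.78 CPM in wild-type. No value overlapped, and the log2 fold change was 0.92 (SE 0.21, edgeR adjusted p = 0.0608, DESeq2 adjusted p = 0.0107). Without ΔDMR1-U2 2 it was 1.06 and was called (adjusted p = 0.0249). Its close relative Kcnj10, the inward rectifier of glia, had 4.14, 3.36, 2.86 and 6.76 CPM against 2.53, 2.99, 2.69 and 1.15 CPM. The groups met between ΔDMR1-U2 2 and wild-type 1B, and the log2 fold change was 0.88 (SE 0.32, edgeR adjusted p = 0.154). It was 0.57 without ΔDMR1-U2 3 and 0.65 without wild-type 3. Kcnj13 had a log2 fold change of 0.27 (95% interval 0.02 to 0.52, edgeR adjusted p = 0.207) and overlaps exons of Gigyf2, in which it lies on the opposite strand.

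Kcnj11 had 21.6, 25.2, 22.4 and 25.2 CPM in ΔDMR1-U2 against 35.4, 23.7, 28.5 and 29.6 CPM in wild-type. Wild-type 1B lay inside the ΔDMR1-U2 range, and the log2 fold change was -0.31 (SE 0.12, edgeR adjusted p = 0.167). Kcnj2 had 44.2, 34.4, 57.0 and 60.8 CPM against 56.2, 59.5, 50.1 and 65.6 CPM. The low values were those of ΔDMR1-U2 1A and 1B, and the log2 fold change of -0.24 (95% interval -0.58 to 0.11) was 0.03 without both. Kcnj12 had 14.7 to 22.5 CPM in ΔDMR1-U2 against 13.9 to 18.8 CPM in wild-type, with a log2 fold change of 0.19 (95% interval -0.13 to 0.51) and of 0.05 without ΔDMR1-U2 1B, the highest library. Kcnj3, a G-protein-gated channel, had 1.74, 1.01, 1.97 and 0.987 CPM against 2.79, 2.37, 1.76 and 2.51 CPM. Wild-type 2 lay inside the ΔDMR1-U2 range, at a log2 fold change of -0.72 (SE 0.25, edgeR adjusted p = 0.149).

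Of the 7 two-pore channels tested none was called by edgeR or DESeq2 and 2 were higher at an unadjusted p under 0.05, and the median log2 fold change was 0.07. Kcnk7 had 3.88, 3.73, 2.80 and 3.50 CPM in ΔDMR1-U2 against 2.66, 2.41, 2.32 and 3.02 CPM in wild-type. Wild-type 3 lay inside the ΔDMR1-U2 range, with a log2 fold change of 0.43 (SE 0.15, edgeR adjusted p = 0.156). Kcnk3, an acid-sensitive leak channel, had 3.36 CPM in ΔDMR1-U2 1B against 1.69 to 1.85 CPM in the other ΔDMR1-U2 libraries and 1.03 to 1.91 CPM in wild-type. The estimate, a log2 fold change of 0.61 (SE 0.27, edgeR adjusted p = 0.228), was 0.32 without that library. Log2 fold changes were -0.13 (95% interval -0.38 to 0.13) for Kcnk6, 0.07 (95% interval -0.17 to 0.31) for Kcnk13 and -0.37 (95% interval -0.89 to 0.16) for the mechanosensitive Kcnk2, where it was -0.23 without ΔDMR1-U2 3 and also without wild-type 2. Kcnrg, which the name pattern includes although it regulates channels and forms none, had one of -0.15 (95% interval -0.70 to 0.40).

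Sizes rested on single libraries to a different degree. The sign of the log2 fold change was the same in all 8 fits that left out 1 library for 46 of the 59 tested genes. ΔDMR1-U2 1B was the lowest of its group for 19 genes and the highest for 16, while ΔDMR1-U2 1A was the lowest for 11 and the highest for 12. Neither these counts nor that of kept signs was made over all genes, so none is read as a trait of the channel genes. The number of channel genes called ranged from 0 to 5 on the higher side and from 0 to 2 on the lower side over these fits. No channel gene was called without ΔDMR1-U2 3, wild-type 1A, wild-type 2 or wild-type 3, nor without both ΔDMR1-U2 1A and 1B. Calls over all genes moved in the same fits, from 172 to between 7 (without ΔDMR1-U2 3, and without wild-type 1A) and 631 (without ΔDMR1-U2 2).

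**Figure D4:**
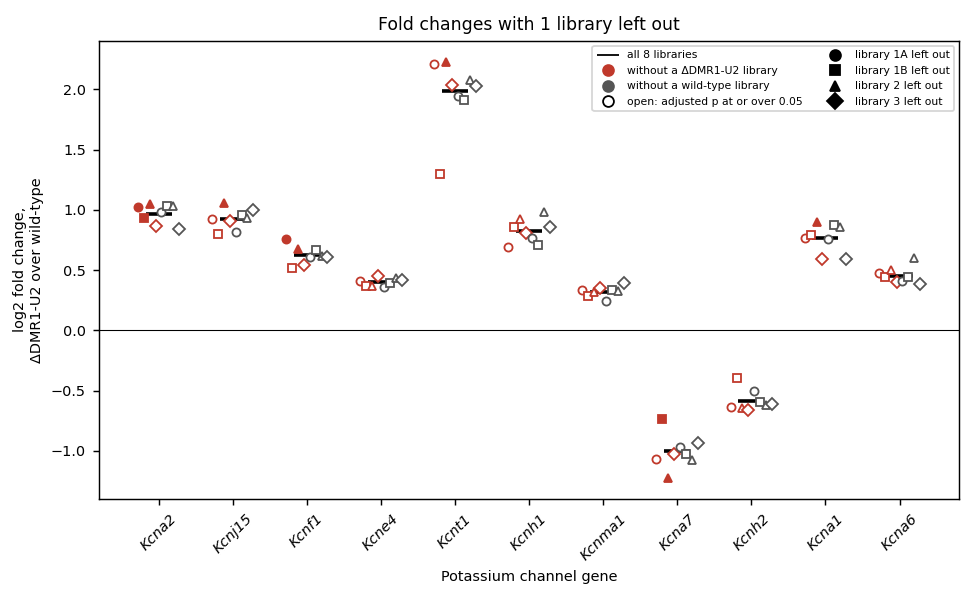
Log2 fold change of 11 potassium channel genes with all 8 libraries (black bars) and with each library left out (points, filled where the adjusted p was under 0.05, red for a ΔDMR1-U2 and grey for a wild-type library). The sign of each gene stays, Kcna2 lies between 0.84 and 1.05, and Kcnt1 drops to 1.30 without ΔDMR1-U2 1B.

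Markers of other cell types were high or low in the same libraries as some of these genes. The 9 Schwann cell and myelin markers in the table had a summed level of 369 to 486 CPM in ΔDMR1-U2 against 270 to 366 CPM in wild-type, with none at 0. None was called by edgeR, 6 were higher at an unadjusted p under 0.05 and 2 were called higher by DESeq2, with a median log2 fold change of 0.55. Their median log2 deviation from the wild-type mean was 0.53, 0.37, 0.32 and 0.94 in ΔDMR1-U2 and 0.14, 0.23, 0.11 and -0.45 in wild-type. Kcna2 deviated by 0.79, 1.06, 0.67 and 1.21 in ΔDMR1-U2 and 0.06, 0.18, 0.16 and -0.39 in wild-type on the same scale, log2(CPM + 0.5). For Kcnj10 the deviations were 0.76, 0.50, 0.30 and 1.41, and 0.15, 0.35, 0.23 and -0.73. The highest library of these 3 series was ΔDMR1-U2 3, and the lowest was wild-type 3. The 10 neuron and axon markers summed to 19.6 to 21.3 CPM in ΔDMR1-U2 against 18.7 to 21.9 CPM in wild-type, with none at 0, and of the 8 tested none was past an unadjusted p of 0.05. The part of nerve tissue in the Kcna1, Kcna2, Kcna6 and Kcnj10 values was not tested.

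The 9 adipocyte markers summed to 632 CPM in ΔDMR1-U2 1B, 250 to 290 CPM in the other ΔDMR1-U2 libraries and 190 to 256 CPM in wild-type. Fabp4 was the most abundant of them, at 269 ± 112 CPM in ΔDMR1-U2 against 163 ± 12.3 CPM in wild-type (SD, n = 4). The median log2 fold change of the 7 tested was 0.73. By library, the median log2 deviation of these 7 from the wild-type mean was -0.20, 1.51, 0.07 and 0.0018 in ΔDMR1-U2. In wild-type it was 0.02, -0.41, 0.43 and -0.06. The 5 epidermis markers in the table were also highest in ΔDMR1-U2 1B, with a sum of 27.6 CPM against 12.4 to 13.7 CPM in the other ΔDMR1-U2 libraries and 11.1 to 17.8 CPM in wild-type, and the median log2 fold change of the 4 tested was 0.50. Cidea, a lipid droplet protein, rose (22.0 ± 6.79 against 10.5 ± 0.541 CPM, SD, n = 4, log2 fold change 1.07, edgeR adjusted p = 0.0301). Its call held in 3 of 8 fits without 1 library (0.86 to 1.19, with the adjusted p up to 0.108 without wild-type 1A), and Ucp1 was at 0 in at least 1 library. In ΔDMR1-U2 1B, Kcnt1 deviated by 2.35, Kcnk3 by 1.02, Kcna7 by -2.16 and Kcnh2 by -1.31 on the log2(CPM + 0.5) scale. Kcnc4 deviated there by -1.46 and Kcna5 by 0.52. The genes plotted beside these markers were picked for standing apart in that library, so sharing it with the markers follows from the choice. For the 10 skeletal muscle markers the median was -0.20 on the log2 fold scale, with 4 lower and 0 higher at an unadjusted p under 0.05. DESeq2 called 3 of these muscle markers lower and 0 higher, and edgeR called none. Cartilage markers, at 32.6 to 626 CPM in ΔDMR1-U2 against 54.9 to 1367 CPM in wild-type, were lowest in ΔDMR1-U2 3 and wild-type 1A, with a median log2 fold change of -0.96. Median log2 fold changes were -0.29 for the 3 erythroid markers tested, 0.00 for vascular smooth muscle, 0.05 for endothelium, -0.08 for macrophage and mast cell and -0.06 for fibroblast markers. DESeq2 called 1 vascular smooth muscle and 1 endothelium marker lower, and none of the others in these lists. The part of these cell types in the channel values was not tested.

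**Figure D5:**
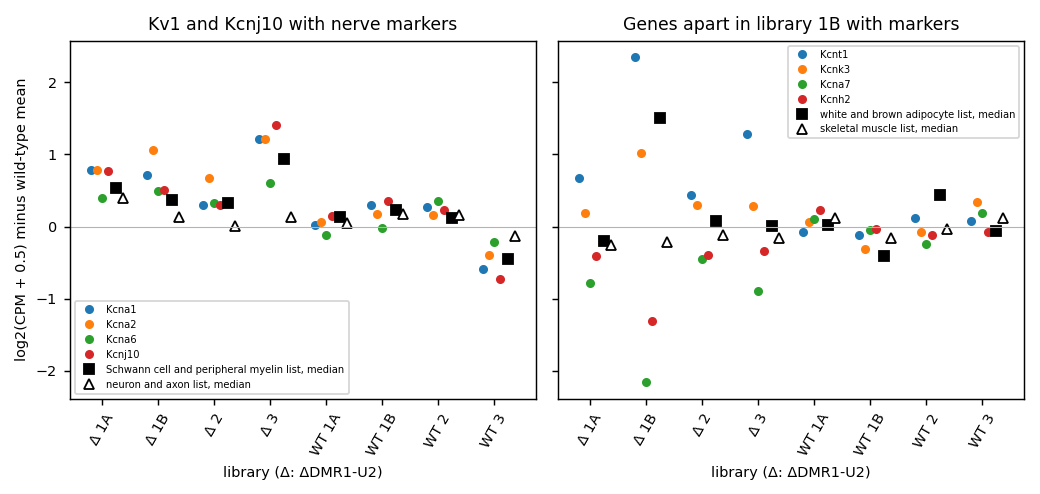
Deviation of channel genes (circles) and marker list medians (squares and triangles) from the wild-type mean in each library, in log2(CPM + 0.5). At left Kcna1, Kcna2, Kcna6 and Kcnj10 are highest in ΔDMR1-U2 3 and lowest in wild-type 3. At right Kcnt1 and Kcnk3 are high and Kcna7 and Kcnh2 low in ΔDMR1-U2 1B, where the adipocyte markers plotted are high. The genes at right were picked for standing apart in ΔDMR1-U2 1B.

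The channel partners outside the Kcn names were read from a list of 34 genes, of which 30 were tested. Akap5, a scaffold that anchors kinases and phosphatases to channels, fell from 5.57 ± 0.609 CPM in wild-type to 3.34 ± 0.560 CPM in ΔDMR1-U2 (SD, n = 4), a log2 fold change of -0.73 (SE 0.15, edgeR adjusted p = 0.0475). The call held in 1 of 8 fits without 1 library (-0.81 to -0.64, with the adjusted p up to 0.149 without wild-type 1A), that without ΔDMR1-U2 2. It was the only edgeR call of the list, where DESeq2 called 1 higher and 3 lower, with 3 higher and 4 lower at an unadjusted p under 0.05 and a median log2 fold change of -0.03. DESeq2 called Amigo2 higher (log2 fold change 0.74, DESeq2 adjusted p = 0.0179). Beside Akap5 it called Lrrc38 (-0.84, DESeq2 adjusted p = 0.0281) and Lrrc55 (-1.13, DESeq2 adjusted p = 0.0228) lower. Abcc9, the partner of Kcnj11, had 271 ± 29.0 CPM in ΔDMR1-U2 against 311 ± 19.9 CPM in wild-type, a log2 fold change of -0.20 (edgeR adjusted p = 0.210). Akap9, a scaffold of Kv7 channels, had 368 ± 57.0 and 319 ± 5.74 CPM.

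Potassium released by channels is taken back by the sodium pump and the cation-chloride cotransporters. The list of 24 genes read here holds these, their regulators, and the muscle sodium channel Scn4a and chloride channel Clcn1, which are neither. Of the 24 genes 22 were tested and none was called by edgeR, with 5 higher and 3 lower at an unadjusted p under 0.05, 1 higher and 2 lower by DESeq2, and a median log2 fold change of -0.00. Atp1b4, a muscle member of the pump's beta subunit family, had 1269 ± 197 CPM in ΔDMR1-U2 against 1578 ± 32.2 CPM in wild-type. Its log2 fold change was -0.31 (edgeR adjusted p = 0.134, DESeq2 adjusted p = 0.0494). It was listed by family only, and a part of it in the pump was not tested. Wnk1, a kinase upstream of the cotransporters, had 453 ± 20.2 and 457 ± 15.4 CPM.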

How the data were processed

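Total RNA of skeletal muscle was sequenced in 4 ΔDMR1-U2 and 4 wild-type libraries. The submitters' processing notes name the mm10 build, the aligner TopHat2 2.0.9 with Bowtie2 2.1.0, the counter HTSeq 0.5.4p3, the test DESeq2 1.4.5 and, for read quality, FastQC 0.10.1. Settings, annotation and strand are not stated there. Per the file headers, the authors deposited a raw read count per gene and library. Beside the counts stand the authors' mean normalised signal per group, their fold change as a ratio of wild-type over ΔDMR1-U2, its log2, and their p-value and adjusted p-value. The authors' ratio runs opposite to the direction used here.

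The test on raw counts was that of edgeR 4.0.16 under R 4.3.3 (filterByExpr at a minimum count of 10, TMM scaling, quasi-likelihood test, Benjamini-Hochberg adjustment over 15241 genes, threshold 0.05). CPM is the count rescaled by the scaled library size. Symbols were matched to GENCODE vM21 for lengths and positions. All 92 channel symbols matched, and 478 of 23336 symbols of the table did not. The common biological coefficient of variation was 12.3%. Tested on simulated data for this comparison (15174 genes), the procedure recovered 78.0% of genes changed 1.5-fold, 93.9% changed 2-fold and 100.0% changed 3-fold or 4-fold, and 9 of 193 calls were false. Every simulated gene was given that same common coefficient of variation, and no library was made to stand apart. These rates therefore do not give the share of changed channel genes that the test finds in the real libraries.

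The members, roles, lists and rule for named genes were chosen with earlier results of these data known. The rule names every tested member called by edgeR or DESeq2 or at an unadjusted p under 0.05, the 2 highest per kilobase in each role, the members nearest the count rule, and a list of channels known from muscle, nerve or glia. Of partner lists it names called members and the 2 most abundant. Abcc9 and the other channels named were added after their values were seen, and some genes that the rule takes are not reported here. Alternatives were DESeq2 1.42.0, RLE scaling, no low-count filter, a filter of 10 counts in 4 libraries, a replicate block, leaving out each library, and leaving out both ΔDMR1-U2 1A and 1B. Promoters came from the RefSeq table of GRCm38.p6.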

Additional observations from a re-analysis of the deposited data

Results flagged for a closer look

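In 4 of 64 groups of 4 libraries checked among the named genes, 1 library lay farther from the others than Dixon's criterion allows, and chance gives about 1 in 20 such groups. ΔDMR1-U2 1B held the lowest Kcnh2 value of its group, 10.8 CPM against 20.6 to 21.5 CPM. The same library held the highest Kcnk3 value, 3.36 CPM against 1.69 to 1.85 CPM. Wild-type 1B had 12.6 CPM of Kcnf1 against 11.3 to 11.4 CPM in its group. Wild-type 2 had 47.5 CPM of Kcnc1 against 37.1 to 38.6 CPM.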

How the results depend on the processing

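RLE scaling, no filter and the filter of 10 counts in 4 libraries kept the counts of channel genes called at 1 higher and 1 lower, and of all genes within 1.5 times (164, 241 and 166 against 172). DESeq2 called 930 genes, with 8 channel genes higher and 2 lower. Leaving out 1 library gave 7 to 631 genes called over all genes, 0 to 5 channel genes called higher, 0 to 2 called lower, and a median log2 fold change of the channel genes from -0.0065 (without wild-type 1A) to 0.13 (without wild-type 2), against 0.06. Without both ΔDMR1-U2 1A and 1B, 16 genes were called, 0 of them channel genes in either direction. The cause of these shifts was not tested.

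The libraries share the labels 1A, 1B, 2 and 3 between groups, but deviations of same-labelled libraries correlated at -0.22, -0.18, -0.08 and -0.08, so the labels were not taken as pairs. With the replicate block 13 genes were called, 0 channel genes higher and 0 lower, and the median was 0.06. Kcna2 then had an edgeR adjusted p of 0.0936.

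Over 32 named genes and 14 alternatives, 413 of 448 log2 fold changes kept their direction and side of the threshold, 7 lost the call, 15 gained it and 13 changed sign. The sign was kept throughout by 25 genes. Where single libraries were left out, sign changes came within ranges of -0.39 to 0.031 for Kcna5, -0.34 to 0.0076 for Kcnn2, -0.15 to 0.018 for Kcnn3, -0.039 to 0.15 for Kcnq5 and -0.29 to 0.078 for Kcnrg. Without both ΔDMR1-U2 1A and 1B the sign changed for Kcne3 (-0.054), Kcnj2 (0.025) and Kcnn3 (0.044). Depth limits the genes near the count rule, where intervals of the log2 fold change span more than 1.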
